A study of Homo sapiens with 12 samples.

Results

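The untreated state of 2 human diffuse large B-cell lymphoma (DLBCL) lines, OCI-LY3 and VAL, was compared across all genes. DLBCL is an aggressive cancer of mature B cells. The comparison used 4 of the 12 RNA-seq libraries of a study of AZ5576, a selective inhibitor of the transcription kinase CDK9: 2 of OCI-LY3 and 2 of VAL, all labelled 0 h; the series text calls the controls vehicle-treated. The other 8 libraries came from the same lines after 3 h or 6 h with 300 nM AZ5576, and no group carried a genetic modification in the labels. Of 58233 genes in the count table, 28506 had a count in an untreated library and 16374 had enough counts to be tested. Total counts were 36338085 and 39715536 in untreated OCI-LY3, and 34134616 and 31561576 in untreated VAL. Levels are in CPM, counts scaled to library size with TMM factors, and differences are log2, OCI-LY3 minus VAL, with the standard error (SE) after ±. A gene was called higher or lower at an adjusted p under 0.05 and at least a 2-fold difference.

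Most DLBCL falls into 2 types by gene expression. The germinal-centre B-cell-like (GCB) type keeps genes of the germinal centre, the site where B cells mutate and select their antibody genes, such as BCL6, MME (CD10) and LMO2. The activated B-cell-like (ABC) type resembles cells leaving it, with chronic NF-kB signalling and high IRF4, CD44, CCND2 and IL10. NF-kB is a family of transcription factors held in the cytoplasm by inhibitor proteins and released by receptor signals. Cell-line collections usually describe OCI-LY3 as ABC type and VAL as GCB type with rearranged MYC and BCL2.

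Several markers of the ABC type were low or had no count in the libraries labelled OCI-LY3, and markers of the germinal centre were present. MME, a surface peptidase of germinal-centre B cells, stood at 155 and 157 CPM in the OCI-LY3 libraries and at 165 and 160 CPM in VAL. BCL6, the master repressor of the germinal centre, stood at 193 CPM in OCI-LY3 and 127 CPM in VAL. IRF4, a driver of the ABC type and of plasma cells, stood at 2.83 and 2.71 CPM in OCI-LY3 and at 26.9 and 28.0 CPM in VAL. The ABC marker was thus higher in the line usually described as GCB. Other genes of the 2 types went the other way, with ETV6, BATF and IL10 higher in OCI-LY3 and LMO2 lower.

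CD44, an adhesion receptor of activated B cells, had no count in either untreated OCI-LY3 library and stood at 5.19 and 4.94 CPM in VAL. CCND2, a cyclin of the ABC type, was at 0.0226 CPM in OCI-LY3. It did not pass against VAL (-2.68, edgeR adjusted p = 0.0884), so it does not set the lines apart. IL6 had a single count over both untreated OCI-LY3 libraries. The treated libraries showed the same: over all 6 OCI-LY3 libraries MME ranged from 151 to 176 CPM, IRF4 from 0.666 to 2.83 CPM and CD44 from 0 to 0.0730 CPM. Per kilobase of exon, the median level of 20 GCB classifier genes was 11.8 CPM per kb in OCI-LY3 against 1.57 CPM per kb for 25 ABC classifier genes. In VAL the same medians were 18.8 and 1.79 CPM per kb. Summed CPM ran the other way, at 2326 and 2345 for the ABC list and 1958 and 1970 for the GCB list in OCI-LY3. In VAL the sums were 2054 and 2042 against 1940 and 1917 CPM. The lists hold different genes, so neither order assigns a type. What the cultures labelled OCI-LY3 were was not tested, and OCI-LY3 below means the libraries so labelled.

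Both lines were B cells by their markers. All 12 mature B-cell markers were at 1 CPM or more in both lines, and their summed level was 3838 and 3865 CPM in OCI-LY3 and 4281 and 4250 CPM in VAL. CD3D and CD3G, which define T cells, were at 0 or near 0, but TRBC2 and LCK of the T-cell list were expressed in VAL, with the list's sum given below. The 13 myeloid markers were at or near 0 with the exception of ITGAM (4.90 CPM in OCI-LY3). Per the labels the lines were sequenced on different lanes, so line and lane cannot be told apart. Replicate 1 of VAL carries a mark of resubmission in the labels. Nothing in the labels says that replicates were separate cultures, so the tests measure the spread between libraries only. That spread was estimated over all 12 libraries, so the SE and p at 0 h also rest on the treated ones. Distance between replicates, as a chi-square per degree of freedom, was 2.18 in untreated OCI-LY3 and 1.60 in untreated VAL. In the treated groups it was 17.6 and 2.73 for OCI-LY3 and 56.2 and 45.6 for VAL at 3 h and 6 h.

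The lines differed at many expressed genes. An adjusted p under 0.05 was reached by 56.3% of genes at any fold. Of the 16374 tested genes, 2499 (15.3%) were called higher in OCI-LY3 and 2974 (18.2%) lower, together 33.4%. In each of the 5473 called genes the libraries of one line lay wholly above those of the other. With 2 libraries per line the call itself nearly ensures this, so it adds no support. The share without overlap over all tested genes was not counted. A further 3739 (22.8%) passed below 2-fold and 7162 (43.7%) did not pass. Large differences leaned towards VAL: 621 genes (3.79%) were at least 8-fold higher in OCI-LY3 and 1453 (8.87%) at least 8-fold lower. The median difference of all tested genes was 0.03 and moved to between -0.12 and -0.04 under the 4 other scalings tried, and list medians below are set beside 0.03. With those scalings 2051 to 2213 genes were called higher and 3131 to 3353 lower. In bulk RNA a lower level and fewer expressing cells cannot be told apart.

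The ABC and GCB classifier genes did not separate the lines as lists. Of 25 ABC genes, 6 were higher in OCI-LY3, 5 lower, 6 passed below 2-fold and 8 did not pass, with a median of -0.29. Under the other scalings 6 were higher and 7 to 8 lower. Of 20 GCB genes, 1 was higher, 5 lower, 9 passed below 2-fold and 5 did not pass, with a median of -0.26. Within each list, though, single members lay far apart.

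ETV6, a haematopoietic repressor of the ABC list, stood at 79.4 and 80.8 CPM in OCI-LY3 and at 9.21 and 8.36 CPM in VAL (3.19 ± 0.25, edgeR adjusted p = 1.01e-06). BATF, an AP-1 partner of IRF4, was higher too, at 11.1 against 1.72 CPM (2.70 ± 0.17). Both are ABC genes that ran opposite to IRF4 and CD44. Among GCB genes LMO2, a bridging factor of germinal-centre transcription complexes, had a single count in OCI-LY3 and stood at 78.6 and 75.8 CPM in VAL. Its count ratio was 6585 in favour of VAL, with an exact 95% interval whose lower bound was 1181. NEK6, a mitotic kinase, was the only GCB gene called higher in OCI-LY3, at 140 against 48.7 CPM.

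**Figure D1:**
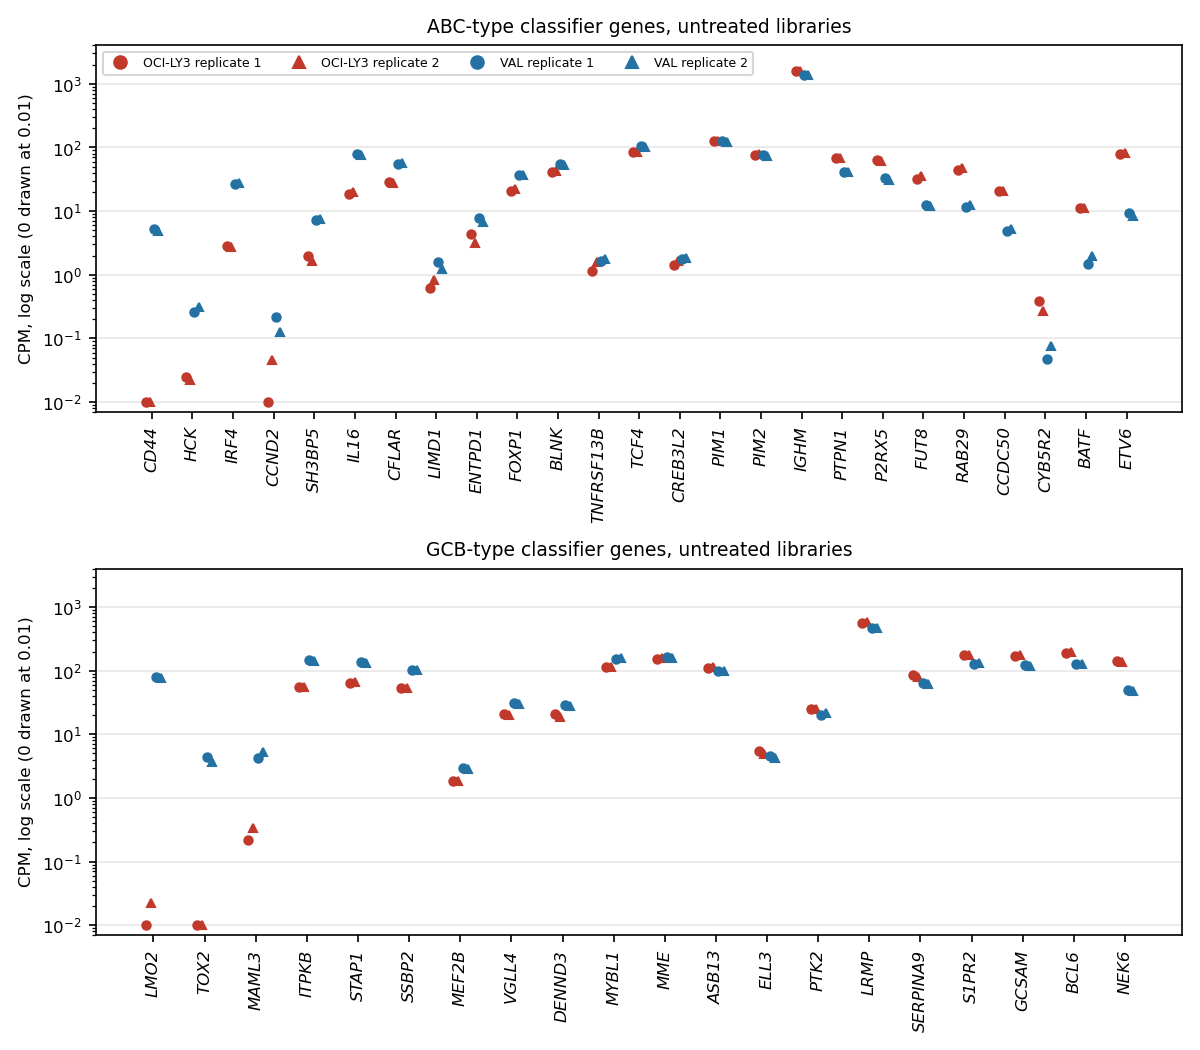
CPM on a log axis of each ABC-type (top) and GCB-type (bottom) classifier gene in the 4 untreated libraries, with circles and triangles for replicates 1 and 2, red for OCI-LY3 and blue for VAL, and genes ordered by their difference. IRF4 and CD44 sit higher in VAL, ETV6 and BATF higher in OCI-LY3, and MME and BCL6 at 127 CPM or more in all 4 libraries.

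NF-kB target genes, the list with the most tested members, also had the most members called higher in OCI-LY3. The cytokine list below had 11 of 23 higher. Over all tested genes 15.3% were higher and 18.2% lower. Of 43 targets 41 were tested: 19 were higher and 8 lower, 8 passed below 2-fold and 6 did not pass, with a median of 0.88. Under the other scalings 16 were higher and 9 to 11 lower. Members lower in OCI-LY3 included CD44, IRF4, STAT5A, LTB (76.2 against 222 CPM) and BCL3.

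CXCL10, a chemokine that draws T cells, stood at 6.54 and 7.16 CPM in OCI-LY3 and had no count in VAL, a level at least 186-fold higher over a floor of 3 counts for the VAL group. EBI3, the shared subunit of IL27 and IL35, stood at 69.0 and 66.2 against 1.88 and 2.27 CPM (5.03 ± 0.14, edgeR adjusted p = 1.19e-09). RGS1, which damps chemokine receptor signals, stood at 17.6 and 17.3 against 0.547 and 0.586 CPM (4.94 ± 0.20). CCR7, the receptor that leads B cells to the T-cell zone, followed at 102 against 8.62 CPM (3.57 ± 0.18), and PLEK, a phosphoprotein of protein kinase C signalling, at 584 against 73.6 CPM (2.99 ± 0.09).

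The promoters of the 3 targets with the largest differences at 5 CPM or more are printed to show whether they hold the letters of a kB site, the DNA sequence that NF-kB binds. Each is the 250 bases before the start in RefSeq (GRCh38.p14), and capitals mark matches to the letters GGG, any 5 bases, then CC, on either strand, with overlapping matches joined. CXCL10 lies at chr4:76023498-76023747 on the minus strand, EBI3 at chr19:4229273-4229522 on the plus strand and RGS1 at chr1:192575523-192575772 on the plus strand.
CXCL10: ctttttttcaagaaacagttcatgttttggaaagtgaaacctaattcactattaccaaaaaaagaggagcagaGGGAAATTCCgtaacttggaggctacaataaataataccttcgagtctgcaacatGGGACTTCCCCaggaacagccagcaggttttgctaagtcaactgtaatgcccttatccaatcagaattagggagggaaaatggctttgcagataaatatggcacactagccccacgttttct
EBI3: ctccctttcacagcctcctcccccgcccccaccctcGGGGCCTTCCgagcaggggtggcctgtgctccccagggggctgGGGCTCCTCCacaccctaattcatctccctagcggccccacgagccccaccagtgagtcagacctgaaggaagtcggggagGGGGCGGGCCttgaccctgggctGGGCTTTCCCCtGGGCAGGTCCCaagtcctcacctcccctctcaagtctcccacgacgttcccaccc
RGS1: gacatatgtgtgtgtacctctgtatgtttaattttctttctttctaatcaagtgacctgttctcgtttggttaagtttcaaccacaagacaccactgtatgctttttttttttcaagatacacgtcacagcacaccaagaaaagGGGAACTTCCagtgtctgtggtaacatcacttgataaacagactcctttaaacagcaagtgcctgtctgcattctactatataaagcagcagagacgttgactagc
CXCL10 held 2 separate stretches, 177 and 122 bases before the start, EBI3 held 5 and RGS1 held 1. The pattern was held by 54.4% of 35116 promoters. A narrower form, GGG, any 2 bases, then TTTCC, held by 1.73% of promoters, was in none of the 3. Other narrower forms were not searched, so this does not show that kB sites are absent.

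The NF-kB subunits and inhibitors differed less. Of 30 genes 7 were higher and 2 lower, 13 passed below 2-fold and 8 did not pass, with a median of 0.47. The subunits RELA (78.8 and 77.5 CPM), RELB and REL did not pass the test. Among the higher members were MALT1 (72.8 against 27.7 CPM), a protease that links the B-cell receptor to NF-kB, CHUK (79.8 against 34.1 CPM), a kinase of the IKK complex, and NFKB2 (170 against 71.6 CPM), the precursor of p52.

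TNFAIP3 (A20), the enzyme that shuts the pathway off, stood at 77.4 and 70.2 against 15.5 and 15.6 CPM (2.24 ± 0.19, edgeR adjusted p = 2.11e-06). TRAF1, an adaptor of TNF receptors, stood at 129 against 21.9 CPM (2.56 ± 0.19). BCL3, a nuclear partner of p50 and p52, ran the other way, at 11.8 against 42.8 CPM (-1.86 ± 0.11). BIRC3, an apoptosis inhibitor of the same pathway, stood at 638 and 616 against 135 and 136 CPM (2.21 ± 0.31).

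MHC class II genes, which present peptides to helper T cells, had the lowest median of the pathway lists. Of 19 genes, 10 were lower in OCI-LY3, 3 higher, 2 passed below 2-fold and 4 did not pass, with a median of -1.52. HLA-DRA, the invariant alpha chain of HLA-DR, stood at 1.83 and 2.19 CPM in OCI-LY3 and at 935 and 918 CPM in VAL (-8.84 ± 0.30, edgeR adjusted p = 3.02e-09). HLA-DRB1, its beta chain, stood at 1.12 and 1.36 against 182 and 183 CPM (-7.20 ± 0.20). HLA-DPA1, HLA-DPB1, HLA-DQA1 and HLA-DQB1 were lower as well, by -5.28 to -3.76. Reads of the DR and DQ genes come from polymorphic near-copies, and counting on reference alleles can misplace them.

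The loading genes followed with smaller differences. HLA-DMA and HLA-DMB, the peptide editor, stood at 10.5 against 151 CPM and 9.02 against 63.7 CPM. CD74, the invariant chain, stood at 928 against 2662 CPM (-1.52 ± 0.11). CIITA, the coactivator that switches class II genes on, stood at 99.1 and 91.4 CPM in OCI-LY3 and at 60.4 and 61.4 CPM in VAL and did not pass (0.65 ± 0.29, edgeR adjusted p = 0.0824). Of the RFX complex that recruits CIITA, RFXAP was higher (22.2 against 9.85 CPM), RFX5 lower below 2-fold (95.8 against 143 CPM), and RFXANK did not pass. HLA-DOB, a modulator of HLA-DM in B cells, was higher at 8.91 against 2.82 CPM.

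Class II promoters share an inverted CCAAT element, the Y box, read as GATTGG on the coding strand. The promoters of HLA-DRB1 (chr6:32589849-32590098) and HLA-DQB1 (chr6:32666658-32666907), both on the minus strand, are printed from RefSeq (GRCh38.p14) for that letter run, with matches on either strand in capitals; these genes were picked for printing after their values were seen.
HLA-DRB1: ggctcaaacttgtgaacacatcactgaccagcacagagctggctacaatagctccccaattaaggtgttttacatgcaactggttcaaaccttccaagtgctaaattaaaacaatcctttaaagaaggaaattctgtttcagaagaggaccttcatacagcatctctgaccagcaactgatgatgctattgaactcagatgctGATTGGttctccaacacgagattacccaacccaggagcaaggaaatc
HLA-DQB1: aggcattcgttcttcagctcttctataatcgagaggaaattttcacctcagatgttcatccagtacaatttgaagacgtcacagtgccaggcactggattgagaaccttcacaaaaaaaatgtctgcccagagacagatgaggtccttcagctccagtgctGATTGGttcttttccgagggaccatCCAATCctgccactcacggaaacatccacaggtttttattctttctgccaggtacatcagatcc
HLA-DRB1 held 1 match, 47 bases before the start, and HLA-DQB1 held 2, at 89 and 64 bases before it. Of all 35116 promoters 14.1% held the run. These are letters of the reference genome and say nothing of the alleles in either line.

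MHC class I genes were near the background. Of 20 genes 3 were higher, 1 lower, 7 passed below 2-fold and 9 did not pass, with a median of 0.22; 2 were lower under the other scalings. HLA-B, a heavy chain of class I, and B2M, the light chain, did not pass, with HLA-B at 446 and 445 CPM. TAP2, a peptide transporter subunit, was higher (100 against 31.0 CPM, 1.69 ± 0.09) and ERAP2, a peptide-trimming enzyme, lower (11.1 against 85.2 CPM, -2.94 ± 0.18).

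**Figure D2:**
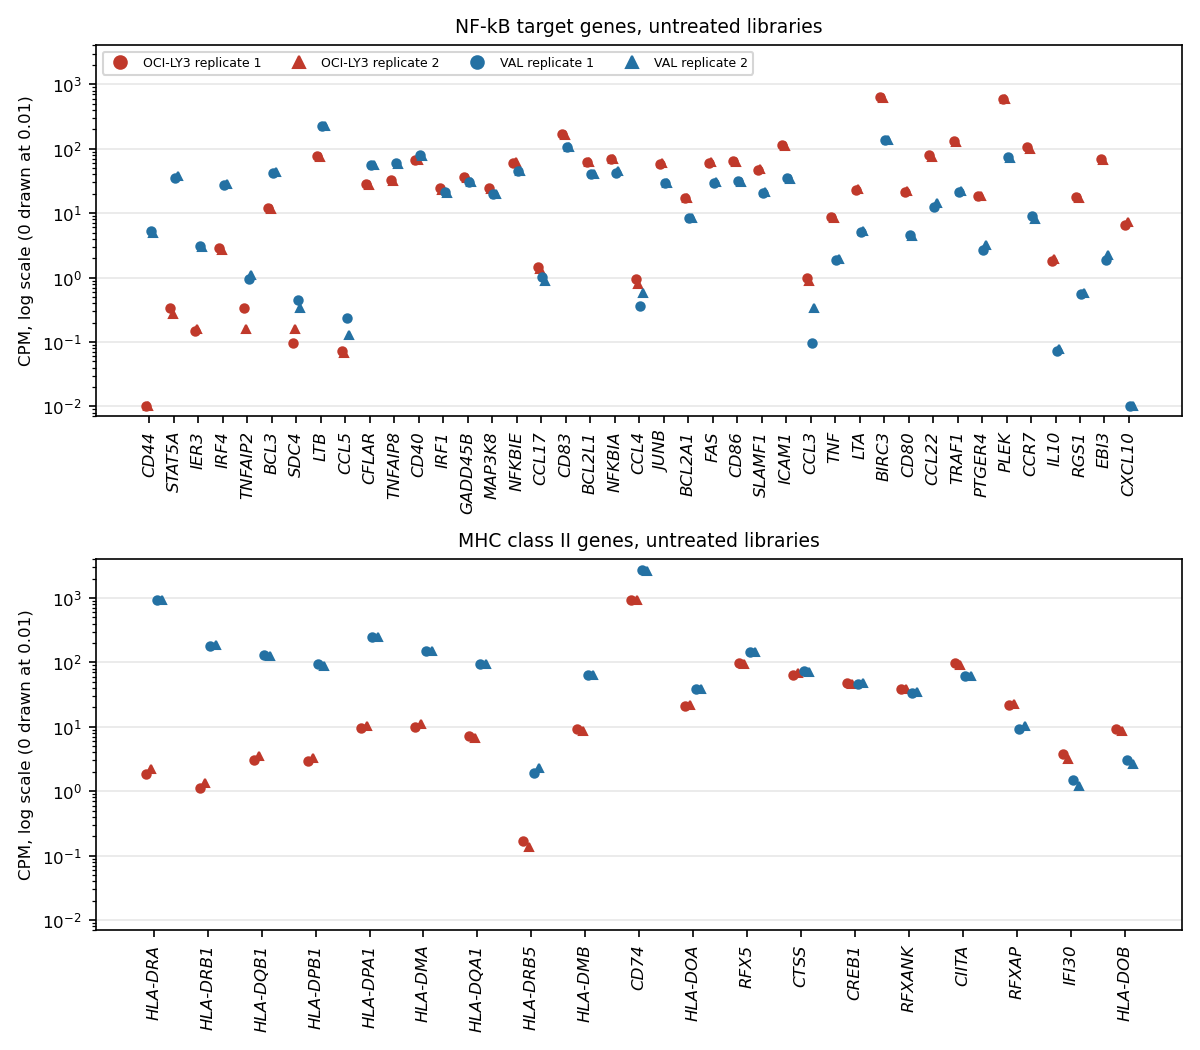
CPM on a log axis of the tested NF-kB target genes (top) and MHC class II genes (bottom) in the 4 untreated libraries, drawn as circles and triangles for replicates 1 and 2, red for OCI-LY3 and blue for VAL. From ICAM1 rightwards the red points lie above the blue, and HLA-DRA lies at 918 CPM or more in VAL and at 2.19 CPM or less in OCI-LY3.

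B-cell receptor signalling genes differed in both directions. Of 35 genes 9 were higher, 5 lower, 13 passed below 2-fold and 8 did not pass, with a median of 0.23. Under the other scalings 7 to 8 were higher and 7 lower. CR2 (CD21), the complement receptor that lowers the threshold of the B-cell receptor, stood at 211 and 210 CPM in OCI-LY3 and at a mean of 4.03 CPM (SD 0.0378, n = 2) in VAL (5.71 ± 0.17, edgeR adjusted p = 1.54e-09). PRKCB, a protein kinase C downstream of the B-cell receptor, stood at 51.7 against 3.55 CPM (3.86 ± 0.11). FCGR2B, an inhibitory Fc receptor, was higher as well, at 16.5 against 1.37 CPM (3.59 ± 0.17). The proximal kinases were lower: LYN stood at 72.0 and 67.5 against 529 and 508 CPM (-2.89 ± 0.09) and SYK at 171 against 390 CPM (-1.19 ± 0.09). BTK, PLCG2 and CD79A differed by less than 2-fold, and BTK passed the test while the other 2 did not.

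The leading kappa segment differed between the lines, and the leading heavy-chain segment of OCI-LY3 had no count in VAL. IGHM, the constant region of IgM, was at 1604 CPM in OCI-LY3 and 1358 CPM in VAL and did not pass. IGHD was lower in OCI-LY3, at 16.2 against 109 CPM (-2.75 ± 0.13), and IGHE stood at 0.0470 against 30.6 CPM (-9.23 ± 0.33). Of 15 tested constant genes 7 were lower, 1 higher, 3 passed below 2-fold and 4 did not pass, with a median of -0.75.

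Among heavy-chain V segments IGHV3-21 held 5184 of 5572 counts in OCI-LY3 (93.0%, exact 95% interval 92.3% to 93.7%) and had no count in VAL. VAL had 113 heavy-chain V counts in all, and IGHV4-31 led with 42 (37.2%, 28.3% to 46.8%). IGHV4-31 did not pass between the lines (0.58, edgeR adjusted p = 0.252), so it does not set VAL apart. For the kappa chain IGKV1-5 held 9850 of 10144 counts in VAL (97.1%, 96.8% to 97.4%) and had none in OCI-LY3. IGKV3-20 led OCI-LY3 with 402 of 509 counts. Among lambda segments IGLV6-57 led in both lines, with 841 of 1196 counts in OCI-LY3 (70.3%, 67.6% to 72.9%) and 342 of 1010 in VAL (33.9%, 30.9% to 36.9%). Reads of near-identical segments may be split, and intervals cover counting error only.

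Surface antigens, several of them drug targets, differed in both directions: of 32 tested, 10 were higher, 7 lower, 9 passed below 2-fold and 6 did not pass, with a median of 0.19. Under the other scalings 6 to 7 were higher and 8 lower. MS4A1 (CD20), the target of rituximab, did not pass (785 and 710 CPM), nor did CD79A. CD58, the ligand of the T-cell receptor CD2, was higher at 19.5 against 2.19 CPM (3.15 ± 0.20).

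CD59, which blocks the complement membrane attack, had no count in OCI-LY3 and stood at 28.6 and 29.3 CPM in VAL, at least 823-fold lower over the floor of 3 counts. CD24, a mucin-like B-cell antigen, had 2 counts in OCI-LY3 against 122 and 123 CPM in VAL. CD52, the target of alemtuzumab, stood at 10.7 against 142 CPM (-3.72 ± 0.17), and TNFRSF17 (BCMA), a plasma-cell receptor, at 4.33 against 48.7 CPM (-3.49 ± 0.20).

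More cytokine genes were called higher than lower in OCI-LY3. Of 23 tested, 11 were higher, 4 lower, 2 passed below 2-fold and 6 did not pass, with a median of 0.88. IL32, a cytokine of activated lymphocytes, stood at 24.4 and 24.5 against 0.0952 and 0.127 CPM (7.73 ± 0.55). CCL22, a chemokine for regulatory T cells, stood at 81.0 and 74.9 against 12.6 and 14.4 CPM (2.53 ± 0.10). IL10, the ABC-type cytokine, was higher at only 1.78 and 1.97 against 0.0714 and 0.0765 CPM (4.59 ± 0.42). TNFSF8 (CD30 ligand) ran the other way, with no count in OCI-LY3 and 25.9 and 25.4 CPM in VAL, at least 730-fold lower. Of these lists the chemokine and NF-kB target lists share members, CXCL10 and CCL22 among them.

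Genes of the JAK-STAT pathway, which carries cytokine signals to the nucleus, differed in both directions. Of 27 tested genes 8 were higher, 7 lower, 7 passed below 2-fold and 5 did not pass, with a median of 0.20. Under the other scalings 6 to 7 were higher and 7 lower. JAK3, the kinase of the common gamma chain, had no count in OCI-LY3 and stood at 22.5 and 21.5 CPM in VAL, at least 626-fold lower. STAT5A stood at 0.342 and 0.271 against 35.6 and 37.2 CPM (-6.88 ± 0.19, edgeR adjusted p = 1.19e-09). JAK1, the partner of JAK3, was higher in OCI-LY3 at 248 and 247 against 73.7 and 72.6 CPM (1.76 ± 0.18), and STAT3 at 37.4 against 17.1 CPM (1.13 ± 0.13). STAT3 missed 2-fold without a composition factor, with upper-quartile factors, and without either OCI-LY3 library or VAL replicate 2. IL7R, a receptor of lymphocyte survival, was higher at 6.39 and 7.16 against 0.0952 and 0.331 CPM.

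Most germinal-centre transcription factors were not called in either direction, as held for all tested genes, of which 33.4% were called. Of 24 factors, 2 were higher, 4 lower, 9 passed below 2-fold and 9 did not pass, with a median of -0.49; neither higher call, FOXO1 or ID2, reached 2-fold under any of the 4 other scalings or with any library left out. BACH2, a repressor of plasma-cell fate, stood at 6.91 and 7.32 against 242 and 241 CPM (-5.08 ± 0.26, edgeR adjusted p = 3.57e-08). PAX5 and TCF3, which keep B-cell identity, did not pass.

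Genes of the plasma-cell programme split. Of 21 tested, 6 were higher, 5 lower, 6 passed below 2-fold and 4 did not pass, with a median of 0.39. XBP1, which expands the secretory pathway, stood at 114 and 119 CPM in OCI-LY3 and at 5.14 and 4.49 CPM in VAL (4.60 ± 0.22). ERN1 (IRE1), the sensor that splices XBP1, was higher too, at 10.8 against 1.57 CPM (2.79 ± 0.28). PRDM1, the repressor that fixes plasma-cell fate, was called higher but stood at 0.882 against 0.135 CPM. IRF4 and ELL2, an elongation factor of secretory antibody mRNA, were lower, and ELL2 had no count in OCI-LY3.

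Receptors of migration and confinement, which hold B cells in the follicle, also split, with 5 higher, 7 lower, 8 passed below 2-fold and 1 not passed of 21 tested and a median of -0.43. GPR183 (EBI2), which draws B cells to the outer follicle, was higher at 6.51 against 0.901 CPM (2.85 ± 0.22). ITGAL, the alpha chain of LFA-1, was lower at 38.1 against 197 CPM (-2.37 ± 0.12), and CXCR4, the receptor of the germinal-centre dark zone, was lower at 118 against 253 CPM (-1.10). S1PR2 and GNA13, the receptor and G protein of confinement, differed by less than 2-fold and passed.

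Survival genes differed most at BCL2 and its antagonists. BCL2, the antiapoptotic protein that VAL is described to carry rearranged, stood at 22.9 and 23.4 CPM in OCI-LY3 and at 438 and 422 CPM in VAL (-4.22 ± 0.46, edgeR adjusted p = 1.58e-05). BCL2L11 (BIM) stood at 17.9 against 135 CPM (-2.91 ± 0.15) and BMF at 3.86 against 42.0 CPM (-3.44 ± 0.19); both are BH3-only killers that BCL2 binds. MCL1, a short-lived survival protein lost under CDK9 inhibitors, did not pass (279 and 237 CPM). Of 10 anti-apoptotic genes 2 were higher, 1 lower, 4 passed below 2-fold and 3 did not pass, and under the other scalings 1 was higher and 2 lower. Of 21 pro-apoptotic genes the counts were 2, 5, 4 and 10, with a median of -0.16.

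MYC stood at 258 and 264 CPM in OCI-LY3 and at 138 and 135 CPM in VAL and passed below 2-fold (0.94 ± 0.09, edgeR adjusted p = 6.03e-06). Of 10 tested genes of its network 2 were higher, 3 lower, 1 passed below 2-fold and 4 did not pass, with a median of -0.11. Of its antagonists MXD1, MXD3 and MXD4 were lower, MXD3 at 8.07 against 51.4 CPM, while MXI1 was higher at 11.1 and 12.9 against 2.98 and 2.60 CPM. Nucleolar MYC targets, the genes that build ribosomes, had a median of 0.48 but few calls. Of 34, 3 were higher, 0 lower, 17 passed below 2-fold and 14 did not pass, beside 15.3% higher over all tested genes. Under the other scalings 2 were higher and the median was 0.31 to 0.37. Protein-coding genes at 5 CPM or more in both lines had a median of 0.18. Glycolysis genes had a median of 0.50 (0.33 to 0.39 under the other scalings), with 3 of 21 higher, 1 lower, 10 passed below 2-fold and 7 not passed. HK1, the first enzyme of the pathway, was the lower call, at 6.09 against 42.2 CPM.

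The drug target and its partners did not differ much. CDK9 stood at 63.4 and 62.3 CPM in OCI-LY3 and at 65.7 and 65.0 CPM in VAL and did not pass (-0.06 ± 0.10, edgeR adjusted p = 0.677). Of 33 genes of P-TEFb, the CDK9 complex, and of elongation, 2 were higher, 2 lower, 9 passed below 2-fold and 20 did not pass. Their median was 0.03 and turned to between -0.14 and -0.08 under the other scalings. MLLT3 (AF9), a subunit of the super elongation complex, stood at 14.2 and 14.4 against 176 and 174 CPM (-3.61 ± 0.11), and AFF1, its scaffold, at 6.26 against 1.31 CPM.

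Among cell-cycle genes CCND3 and the E cyclins differed in opposite directions. CCND3, the main D cyclin here, stood at 335 against 136 CPM (1.30 ± 0.19). CCNE1 and CCNE2, which drive entry into S phase, were lower at 14.0 against 34.2 CPM and 12.3 against 41.0 CPM. Of 20 tested G1 genes 3 were higher, 3 lower, 9 passed below 2-fold and 5 did not pass, and under the other scalings 2 were higher and 5 to 6 lower. Of 32 mitotic genes 0 were higher, 4 lower, 12 passed below 2-fold and 16 did not pass, with a median of -0.24; 6 were lower under the other scalings.

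Interferon-stimulated genes differed in both directions. Of 34 tested, 13 were lower, 8 higher, 4 passed below 2-fold and 9 did not pass, with a median of -0.39. MX1, an antiviral GTPase, had a single count in OCI-LY3 and stood at 35.1 and 34.9 CPM in VAL. OAS1, a sensor of double-stranded RNA, stood at 12.7 against 58.5 CPM (-2.21 ± 0.13). PARP9, an interferon-induced ADP-ribosylation factor, was higher at 29.6 and 30.2 against 5.05 and 5.05 CPM (2.57 ± 0.28). Immediate-early genes had 6 higher, 10 lower, 7 passed below 2-fold and 7 not passed of 30, with a median of -0.49, and NR4A1, an orphan nuclear receptor induced by the B-cell receptor, stood at 0.796 against 8.80 CPM.

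Of 22 epigenetic regulators mutated in lymphoma 5 were lower, 0 higher, 6 passed below 2-fold and 11 did not pass, with a median of -0.26. The shares over all tested genes were 18.2% lower and 15.3% higher, so the lower calls were near the background. HDAC9 stood at 7.04 against 46.0 CPM and HDAC7 at 160 against 407 CPM, both histone deacetylases. Genes of other cell types were present at single members. LCK, a T-cell kinase also found in B-lineage tumours, stood at 11.1 against 129 CPM, and TRBC2, a T-cell receptor constant gene, at 9.65 against 160 CPM. The 16 T-cell markers in the table summed to 27.6 and 26.2 CPM in OCI-LY3 and to 305 and 294 CPM in VAL, with CD3D, CD3G and CD7 at 0 in VAL. Of 6 tested, 1 was higher, 4 lower and 1 did not pass. COL1A1, a collagen chain, stood at 33.8 and 28.8 against 0.190 and 0.280 CPM, while COL1A2, its partner chain, had no count in either line. PECAM1, an endothelial adhesion molecule, was the other tested member of that list and was lower. Of 6 tested myeloid markers 3 were higher and 3 did not pass, and of 3 tested NK-cell markers 1 was higher and 2 did not pass. The NK-cell list summed to 1.22 and 1.02 CPM in OCI-LY3 and to 0.571 and 0.816 CPM in VAL. Of the erythroid list the single tested member passed below 2-fold, and the list summed to 6.57 and 7.36 against 4.52 and 4.10 CPM. The part of these genes in other results was not tested.

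The remaining lists were small or mixed. Of 22 cancer-testis antigens 3 were tested, of which 2 were higher and 1 lower, and the list summed to 2.22 and 2.15 CPM in OCI-LY3 and to 2.26 and 1.81 CPM in VAL. Of the 12 mature B-cell markers 1 was higher, 1 lower, 4 passed below 2-fold and 6 did not pass. Their median was 0.02 and turned to between -0.14 and -0.09 under the other scalings. Of 29 tested core genes, the genes named whatever their values, 7 were higher, 4 lower, 8 passed below 2-fold and 10 did not pass, with a median of 0.24.

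**Figure D3:**
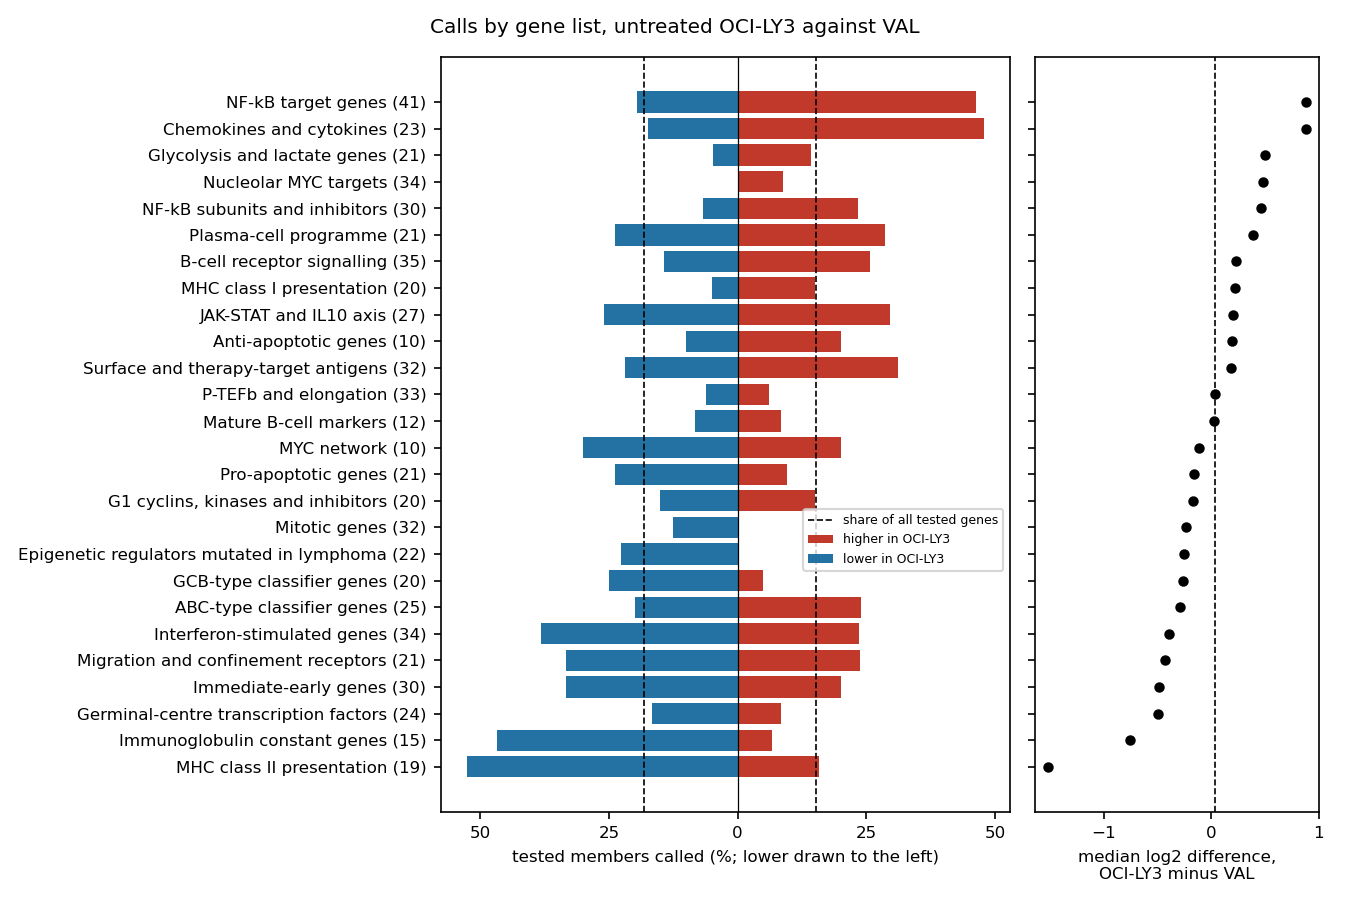
Share of tested members called higher (red, to the right) or lower (blue, to the left) in OCI-LY3 for each gene list drawn, with the number tested in brackets and dashed lines at the shares of all tested genes, 15.3% and 18.2%; the right panel gives each list's median difference beside that of all tested genes. Of the lists drawn, MHC class II genes lie lowest (-1.52) and the NF-kB targets and cytokines highest (0.88).

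The largest differences were genes that only the other line expressed. HSPB1 (HSP27), a small heat-shock chaperone, had no count in OCI-LY3 and stood at 306 and 295 CPM in VAL, at least 8537-fold lower. HMGN3, a nucleosome-binding protein, PFN2, an actin regulator, GYPC, a membrane glycoprotein, and GAMT, an enzyme of creatine synthesis, also had no count in OCI-LY3, against 62.6 to 76.0 CPM in VAL. PLEKHA5, a pleckstrin-homology adaptor, had no count in VAL and stood at 69.9 and 69.7 CPM in OCI-LY3, at least 1890-fold higher. NPTN, an adhesion glycoprotein, MID1IP1, a regulator of lipid synthesis, and NMU, a neuropeptide, had none either, against 25.4 to 40.9 CPM.

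VIM, the intermediate filament protein of many lymphoid cells, stood at 29.9 CPM or more in OCI-LY3 with 2 counts in VAL, and SPARCL1, a matrix protein, at 111 and 111 CPM against 0.190 and 0.102 CPM. EEF1A1, a translation elongation factor stood at 19662 and 20561 CPM against 5617 and 5636 CPM (1.84 ± 0.13). By the rule of at least 5 CPM in 1 line and at most 3 counts over both libraries of the other, 31 protein-coding genes were expressed in OCI-LY3 and not VAL, and 133 in VAL and not OCI-LY3. Of these, 16 and 70 had no count at all in the other line. Among lincRNAs, MIR99AHG and CRNDE had no count in VAL (8.91 and 14.0 CPM in OCI-LY3 replicate 1), and LINC00662 and MIR34AHG, the host transcript of miR-34a, had none in OCI-LY3 (9.12 and 5.31 CPM in VAL replicate 1).

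Some of these genes lay side by side. Runs of at least 3 consecutive tested protein-coding genes, all called and at least 8-fold different in the same direction, numbered 4 higher (12 genes) and 23 lower (80 genes) in OCI-LY3. The longest was HLA-DRA to HLA-DQA2 (6 genes, chr6:32439842-32747215, GRCh38). HOXA7, HOXA9, HOXA10 and HOXA11, patterning factors reused in blood progenitors, formed another at chr7:27153716-27185223, with HOXA9 at 0 counts in OCI-LY3 against 11.0 and 10.9 CPM in VAL. IFITM1, IFITM2 and IFITM3, which restrict virus entry, formed a run with SIGIRR at chr11:307631-417455, and IFITM1 and IFITM2 had no count in OCI-LY3.

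On chromosome 7 ABCB1, the multidrug efflux pump MDR1, stood at 0.0732 and 0.0226 against 7.78 and 8.31 CPM beside ABCB4, a phospholipid pump, and RUNDC3B. ACOT1, ACOT2 and ACOT4, acyl-CoA thioesterases of chromosome 14, had no count in OCI-LY3. Zinc-finger genes made 2 runs on chromosome 19, ZNF230 to ZNF225 (4 genes) and ZNF416 to ZNF134 (3 genes), all 7 with no count in OCI-LY3. Of the runs higher in OCI-LY3, PER3, UTS2 and TNFRSF9 lay together on chromosome 1, where TNFRSF9 (4-1BB), an NF-kB-linked costimulatory receptor, stood at 10.6 and 10.5 against 0.286 and 0.382 CPM. Some runs hold genes under 1 CPM in both lines, such as the HIST1H genes of chromosome 6, and with a minimum mean of 5 CPM only 2 runs were left.

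Taken at any fold, differences also varied with position along the chromosomes. Among 8046 protein-coding genes at 5 CPM or more in both lines the median was 0.18, and 61.9% lay above 0. On chromosome 13 the median of 149 such genes was 0.87 and 91.9% lay above 0. Its 5 blocks of 40 or more neighbouring tested genes had medians from 0.64 to 0.98, all above that median. The same held from PRIM2 to PDCD2 on chromosome 6, where 6 blocks had medians from 0.83 to 0.99, and from PRKAR1B to HSPB1 on chromosome 7, where 6 blocks had medians from 0.59 to 1.25. On chromosome 1 the block from GLIS1 to WDR78 had a median of 0.86. Those from ADGRB2 to PSMB2 and from DNAH14 to URB2 had medians of -0.69 and -0.63. The block from DNAH14 lay in a stretch from DDR2 to PGBD2 whose blocks had medians from -0.63 to -0.16. Other lower blocks lay on chromosome 8 from LYN to ZHX1, with 4 medians from -0.71 to -0.56. On chromosome 12 the blocks from IPO8 to METTL25 had medians from -0.79 to -0.25, the lowest from PRR13 to RPL41. Blocks were added after the data were seen, and DNA copy number was not measured here.

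**Figure D4:**
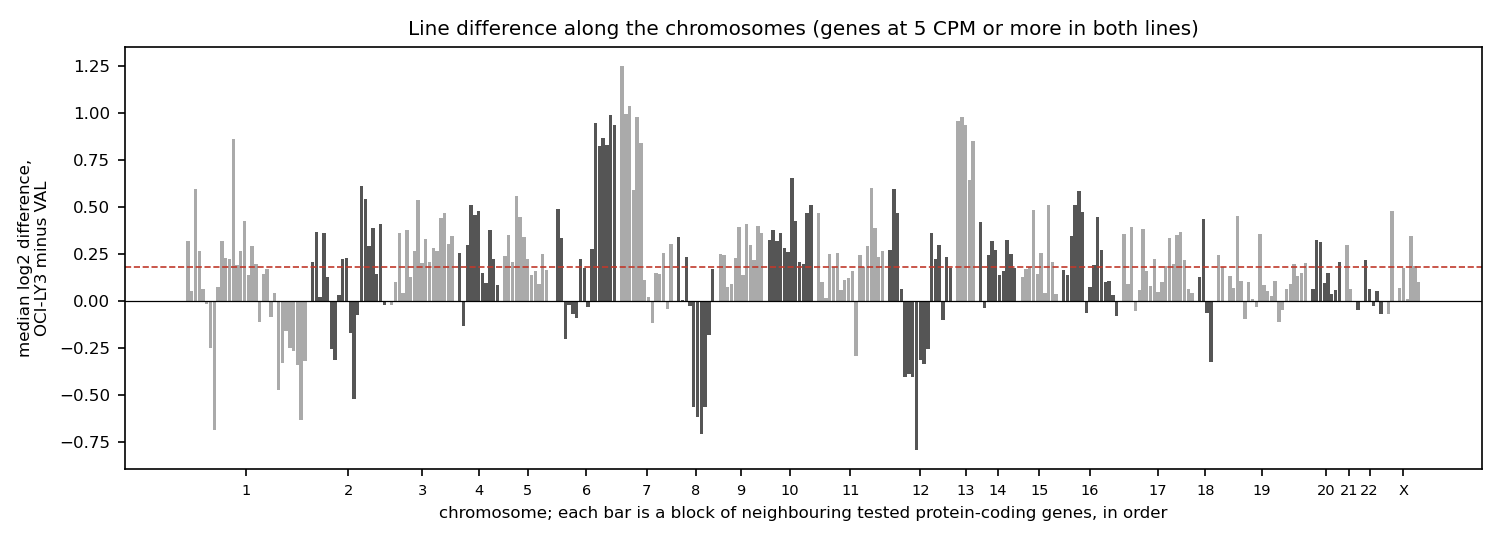
Median log2 difference, OCI-LY3 minus VAL, in blocks of neighbouring protein-coding genes in chromosome order, taken over genes at 5 CPM or more in both lines; grey shades alternate by chromosome and the dashed line marks the median of all such genes, 0.18. Chromosome 13, the latter part of chromosome 6 and the first part of chromosome 7 stand above the line, and the middle of chromosome 8 below 0.

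Much of the line difference was called again at 3 h and 6 h. All 12 libraries shared the scaling and the estimates of spread of a single fit. The treated libraries also came from the same lines and lanes, so these calls are not independent of those at 0 h. Of the 2499 genes higher in untreated OCI-LY3, 1807 (72.3%) were also called higher at 3 h of AZ5576 and 1655 (66.2%) at 6 h, beside 16.4% and 19.7% of all tested genes. Of the 2974 lower genes 2523 (84.8%) and 2324 (78.1%) were called lower again, beside 22.4% and 24.3%. Calls in the opposite direction numbered 4 and 23 of the higher genes and 6 and 32 of the lower ones. In all, 1518 genes were higher and 2216 lower at all 3 times.

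HLA-DRA kept a difference of -8.71 at 3 h and -8.21 at 6 h, and BCL2 of -4.60 and -4.65. XBP1 stood at 5.05 and 7.59, and CR2 at 4.71 and 4.83. BCL3 did not keep its sign: -1.86 at 0 h, -0.21 at 3 h and 1.27 at 6 h. NFKBIA, the inhibitor of NF-kB, went from 0.68 at 0 h to 2.76 and 2.79. TRAF1 went from 2.56 to 1.12 and 0.54. Tested as a change from 0 h, the line difference differed at 988 genes at 3 h (601 by at least 2-fold) and at 4383 genes at 6 h (2735 by at least 2-fold).

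Some treated libraries carried low counts of genes seen only in the other line. The 31 genes expressed in untreated OCI-LY3 alone summed to 0.262 to 1.01 CPM in 5 VAL libraries and to 8.76 CPM in VAL replicate 2 at 3 h, with a count for 28 of the 31 and a median of 1.55% of their level in OCI-LY3. The 133 genes expressed in untreated VAL alone summed to 33.7 CPM in OCI-LY3 replicate 1 at 6 h, with a count for 98 of them and a median of 0.501% of the VAL level, and to 23.8 CPM in its replicate 2, where the median was 0. At 3 h the 133 genes summed to 5.00 and 4.31 CPM in OCI-LY3, with a count for 49 and 55 of them. In the untreated libraries the same sums were 0.262 and 0.306 CPM in VAL, and 1.39 and 1.04 CPM in OCI-LY3. The rule chose the genes by their low counts in those untreated libraries, so these sums are no baseline for the treated ones. Fits with a library left out dropped the replicate only at the time compared. VAL replicate 2 at 3 h thus stayed in the fits for 0 h and 6 h, and OCI-LY3 replicate 1 at 6 h in those for 0 h and 3 h. The part of the low counts of the other line's genes in the treated comparisons was not tested.

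**Figure D5:**
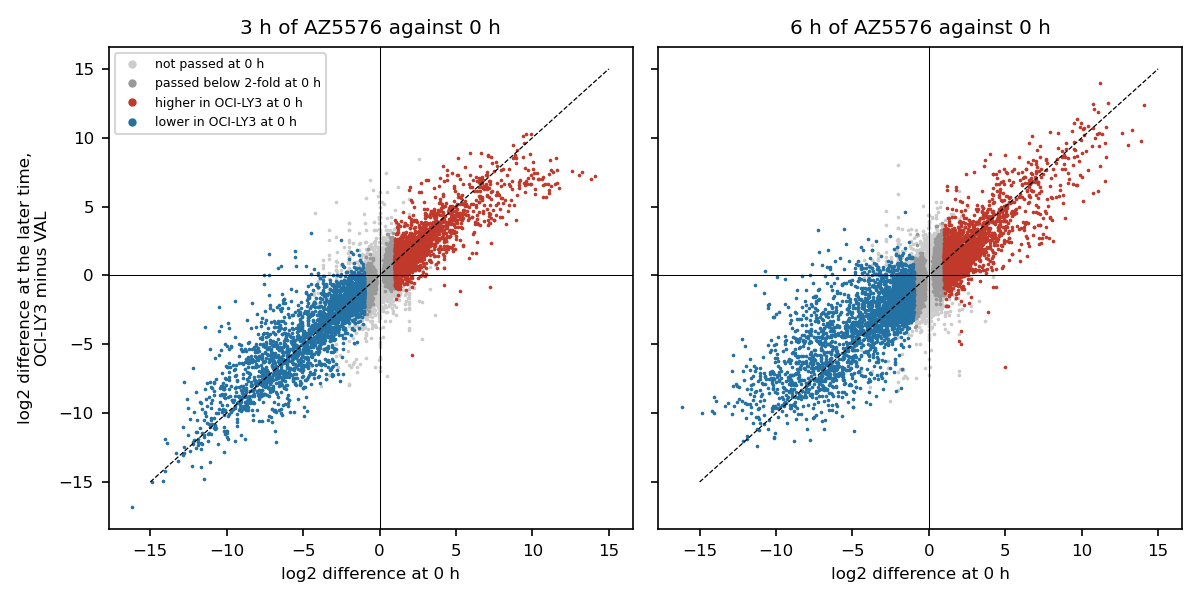
Log2 difference, OCI-LY3 minus VAL, at 3 h (left) or 6 h (right) of AZ5576 against that at 0 h for each of 16374 tested genes, coloured by the call at 0 h, with a dashed line of equality. Of the genes called lower at 0 h (blue) 84.8% were lower again at 3 h, and most coloured points stay on the same side of 0 at both later times.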

How the data were processed

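Poly(A)+ RNA was made into unstranded libraries and read singly over 100 cycles, per the labels' protocols. The authors deposited raw read counts per gene and a table of normalized log2 expression. Per the submitters' processing notes the build was GRCh38 and DESeq2 was used; aligner and counter are not stated. Positions came from GENCODE 29, which held 57895 of 58233 identifiers.

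From the deposited counts, genes passing filterByExpr were fitted with edgeR 4.0.16 (R 4.3.3), TMM scaling and the quasi-likelihood test, in 6 groups of line and time over all 12 libraries (6 residual degrees of freedom), with Benjamini-Hochberg adjustment over 16374 genes. Tests are two-sided, and the 2-fold limit follows the series text. A fold against a group without a count is a lower bound over 3 counts for the group; with 1 to 3 counts an exact 95% interval of the count ratio is used. Reads carry no molecular identifiers, so these limits cover only counting error. Totals ranged from 31561576 to 39715536 counts in the untreated libraries and from 23175082 over all 12. The steps were tested on simulated data.

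Members, the 34 gene lists and the naming rule were chosen with earlier results of these data known. Named by rule were 30 core genes, the 12 most different protein-coding genes at 20 CPM or more and 5 lincRNAs at 5 CPM or more in each direction, up to 5 called members of a list with up to 3 against its majority, run members and leading antibody segments. The remaining genes in the text were picked once values were known. Some genes and 1 list are not reported here.

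Alternatives were other scalings (DESeq2 size factors, none, upper quartile), the 4 libraries of a time alone, other low-level filters, DESeq2 1.42.0, limma 3.58.1 on counts (voom) and on the deposited log2 table, glmTreat, a replicate block, and leaving out each replicate.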

Additional observations from a re-analysis of the deposited data

Results flagged for a closer look

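The difference between the lines was compared between times by an interaction term over all tested genes. It differed from that at 0 h for 988 genes after 3 h and for 4383 genes after 6 h of AZ5576. BCL3, a nuclear NF-kB partner, was called lower in untreated OCI-LY3 (-1.86) and higher after 6 h (1.27). Of the treated libraries, VAL replicate 2 at 3 h and OCI-LY3 replicate 1 at 6 h held low counts of genes seen in the other line only.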

How the results depend on the processing

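Untreated, 9163 genes reached a mean of 5 CPM, so fewer were tested there, and 835 were called higher and 1200 lower (3 h, 1284 and 1464; 6 h, 1585 and 1861; at all 3 times, 570 and 920; runs of neighbours, 0 and 2). Tested against a 2-fold minimum with glmTreat, 1591 genes were higher at 0 h, 1755 at 3 h and 958 at all 3 times, and the lower counts stayed within 1.5 times of those reported. Limma on the deposited log2 table gave 1 higher and 10 lower runs, and the cause was not tested. Runs at 4-fold in place of 8-fold numbered 15 and 38. Genes expressed in 1 line numbered 55 (OCI-LY3) and 254 (VAL) from 2 CPM, 18 and 81 from 10 CPM, and 16 and 70 with no count in the other line. With 1 library left out, 1906 to 2003 genes were higher and 3090 to 3139 lower at 0 h, 2498 to 2979 and 3145 to 3970 at 3 h, and 3024 to 3513 and 3471 to 4234 at 6 h. At all 3 times 1208 to 1319 were higher and 1985 to 2135 lower, with 3 to 5 and 26 to 31 runs. Deviations of same-numbered libraries correlated at -0.0241 between the untreated groups, and from -0.21 to 0.497 over all 15 pairs of groups, so the numbers were not taken to pair libraries. With a replicate block 2497 genes were higher and 2991 lower. At 3 h the correlation of the lines was -0.201, and a crossed pairing, added after the data were seen, gave 2699 higher and 3673 lower there. With no low-count filter the counts were 2430 and 3754, with DESeq2's Wald test 2081 and 3074, and with limma-voom 2513 and 3032. The 4 other scalings moved 37 to 43 of 102 list counts (by over 1.5 times) and medians (by 0.1 or more). MCL1 (in 1 of 15 alternatives), PIM1 and PIM2 (in 12 of 15 each), which did not pass the test, changed sign, and no other named gene did. Genes under about 3 counts for a line cannot be ranked by fold at this depth.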
